A study of Mus musculus with 8 samples.

Results

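The genes described here are 10 genes of testicular macrophages and of antigen presentation on MHC class II: Csf1r, Adgre1, Mrc1, Cx3cr1, Lyz2, C1qa, Cd74, H2-Aa, H2-Ab1 and H2-Eb1. They were chosen by name, as the rows whose Ensembl identifier maps to these symbols. All 10 were found among the 56748 identifiers of the count table, and all 10 were among the 21805 genes that passed the filter on low counts. In GENCODE M21, Csf1r and Cd74 lie on chromosome 18, Adgre1, H2-Aa, H2-Ab1 and H2-Eb1 on chromosome 17, Mrc1 on 2, C1qa on 4, Cx3cr1 on 9 and Lyz2 on 10. The study compared adult mouse testis of the genotype Ak9-/- with testis of wild-type mice by RNA sequencing, in 4 libraries of each, and concerns male fertility and sperm motility. Ak9 encodes an adenylate kinase, an enzyme that interconverts adenine nucleotides. The sources used here give no strain, exact age or allele, nor whether each library is a separate animal, so p-values reflect library-to-library spread that may be technical. RNA came from whole testis. A lower level of a macrophage gene can thus mean fewer macrophages, less RNA per macrophage or more RNA from other cells. These readings cannot be told apart.

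Macrophages are the main immune cells of the healthy testis and are known to fall into a pair of populations. Interstitial macrophages lie among the steroid-producing Leydig cells and are rich in the growth factor receptor CSF1R and the mannose receptor MRC1. Peritubular macrophages lie on the wall of the seminiferous tubules and carry more MHC class II, the surface complex that presents peptides to T cells. A class II molecule is an alpha and a beta chain (H2-Aa with H2-Ab1 in the I-A molecule, H2-Eb1 as the beta chain of I-E), is assembled on the invariant chain CD74, and its genes are switched on by CIITA through a shared pattern of promoter elements, the X and Y boxes.

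RefSeq promoter windows (GRCm38.p6, 300 bases each, 250 of them before the start site) were at hand for 5 of the 10 genes: Mrc1, Cx3cr1, Lyz2, H2-Aa and H2-Eb1. The last 120 bases before the start of the alpha chain gene H2-Aa (chr17:34287824-34287943, minus strand) and the beta chain gene H2-Eb1 (chr17:34305747-34305866, plus strand) are shown because these genes are the class II side of the comparison. Capitals mark GCAACT, a part of the X box, and CTGATTGG, the Y box with its flank. The mannose receptor gene Mrc1 (chr2:14229214-14229413, plus strand, the last 200 bases) stands for the interstitial side, and capitals there mark the PU.1 core GAGGAA read on the other strand.
H2-Aa: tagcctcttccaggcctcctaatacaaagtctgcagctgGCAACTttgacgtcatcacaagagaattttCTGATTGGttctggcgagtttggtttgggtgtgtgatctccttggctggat
H2-Eb1: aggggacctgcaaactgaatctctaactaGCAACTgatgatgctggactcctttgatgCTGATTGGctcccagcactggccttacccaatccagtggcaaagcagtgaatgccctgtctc
Mrc1: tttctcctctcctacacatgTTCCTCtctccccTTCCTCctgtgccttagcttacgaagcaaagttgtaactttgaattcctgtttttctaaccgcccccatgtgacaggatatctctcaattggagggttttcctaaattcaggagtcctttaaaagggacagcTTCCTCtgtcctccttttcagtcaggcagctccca

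Both class II windows held GCAACT upstream of CTGATTGG on the same strand. The first base of GCAACT lay at -81 in H2-Aa and -91 in H2-Eb1, counted from the start site, and that of CTGATTGG at -51 and -62. Over both strands, 10.9% of all 32851 promoter windows held GCAACT, 4.10% held CTGATTGG and 0.466% held both. These letter strings were searched after the sequences had been read. Of the other strings searched, the Y box core ATTGG, which lies within CTGATTGG, was in 37.4% of all windows and in those of Mrc1, Cx3cr1, H2-Aa and H2-Eb1. The X box pattern CCNAGNNAC was in 17.3% of all windows and, of the 5 genes, in H2-Aa. Its match there began at -180, outside the bases shown, so it is not the marked GCAACT at -81. GAGGAA, the core bound by the macrophage factor PU.1, was in 28.3% of all windows and, of the 5 genes, in Mrc1, with 3 matches. A match describes the letters in the window and is no measured binding site.

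Total counts ran from 18062780 to 24415587 per library, and the level that a count of 0 still permits, with 3 counts as the 95% limit, was 0.123 to 0.166 CPM, which are counts on the scale of a shared total, and this covers counting error only. CPM below are scaled by TMM, a correction for library composition. Libraries are written KO1 to KO4 and WT1 to WT4 after their labels. Ak9, the targeted gene, was measured at 69.3 CPM in KO1, 116 in KO2, 101 in KO3 and 40.6 in KO4, and the wild types had 107 to 122. Its level did not separate the groups, so KO stands only for libraries labelled knockout. Protamine Prm1 (1494 to 4020 CPM) and the other 9 round and elongating spermatid markers (32.2 CPM or more) were present in all 8 libraries. KO3 stood apart with the lowest summed elongating spermatid markers (5994 CPM against 9588 to 14907 in the other 7) and with 215 CPM of summed epididymis markers, where KO4 had 36.1 and the others at most 7.96. The labelled knockouts also differed more among themselves, with a median SD of log2 CPM over all tested genes of 0.33 against 0.14 in wild types.

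None of the 10 genes differed between the groups beyond the spread of the libraries. In edgeR's quasi-likelihood test 0 of 10 passed an adjusted p of 0.05 (adjusted p = 1.00 for each), 0 of 10 had an unadjusted p under 0.05, and DESeq2 and limma-voom also called 0 of 10. Over all tested genes 0.0183% passed the adjusted threshold and 3.04% the unadjusted one. The log2 fold changes, labelled knockout over wild type, were below 0 for 8 of the 10 genes, with a median of -0.22, beside a median of 0.01 and 52.9% above 0 over all tested genes. In none of the 10 did the groups separate without overlap, where 2.30% of all tested genes did.

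Among the receptors, Csf1r (ENSMUSG00000024621), the receptor for the growth factors CSF1 and IL34 that keep macrophages alive, was at 10.01, 20.5, 17.2 and 10.1 CPM in KO1 to KO4. In WT1 to WT4 it was at 15.8, 18.0, 17.0 and 17.0 CPM. KO1 and KO4 lay below every wild type and KO2 above every one, so the groups overlapped. The means were 14.5 ± 5.26 and 17.0 ± 0.877 CPM (SD, n = 4 each), with a log2 fold change of -0.23 (95% interval -0.72 to 0.26).

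Mrc1 (ENSMUSG00000026712), the mannose receptor that takes up glycoproteins, was at 35.2, 53.4, 53.3 and 38.4 CPM in KO1 to KO4. In WT1 to WT4 it was at 45.0, 62.1, 52.6 and 50.4 CPM. The same pair, KO1 and KO4, lay below all wild types, and the other pair lay inside the wild-type range. This gave a log2 fold change of -0.22 (95% interval -0.57 to 0.13).

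Cx3cr1 (ENSMUSG00000052336), the receptor for the membrane-bound chemokine CX3CL1, was at 4.42, 6.42, 8.59 and 4.66 CPM in KO1 to KO4 and at 7.16, 6.82, 6.59 and 7.60 in WT1 to WT4. KO1, KO2 and KO4 were below and KO3 above every wild type, with a log2 fold change of -0.22 (95% interval -0.70 to 0.25). Adgre1 (ENSMUSG00000004730), which encodes the macrophage surface antigen F4/80, was at 2.93, 3.86, 3.90 and 4.31 CPM in KO1 to KO4 and at 3.79, 5.03, 4.25 and 4.85 in WT1 to WT4. KO1 alone lay below the wild types, and the log2 fold change was -0.26 (95% interval -0.67 to 0.15). In GENCODE M21 the spans of Csf1r and Cx3cr1 overlap genes on the other strand, and since the counting may not have used strand, reads of such pairs cannot be told apart.

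Of the secreted products, Lyz2 (ENSMUSG00000069516), the lysozyme of myeloid cells, was at 16.4, 26.2, 24.5 and 23.9 CPM in KO1 to KO4 and at 26.0, 26.3, 26.4 and 32.1 in WT1 to WT4. KO1, KO3 and KO4 lay below every wild type and KO2 within their range. Its unadjusted p was the smallest of the 10, with a log2 fold change of -0.28 (95% interval -0.62 to 0.05). Its close copy Lyz1, with which it could share reads, was at 0.269 CPM or less in every library.

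C1qa (ENSMUSG00000036887), a chain of the complement component C1q, was at 11.8, 11.3, 11.9 and 8.22 CPM in KO1 to KO4. In WT1 to WT4 it was at 11.4, 10.1, 10.6 and 13.6 CPM. Only KO4 lay below the wild types, and the log2 fold change of -0.08 (95% interval -0.44 to 0.28) was above 0 without KO4 (0.03) or without WT4 (0.01). The log2 fold change of its partner chain C1qb was 0.09 (SE 0.15), and that of C1qc 0.14 (SE 0.18).

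**Figure D1:**
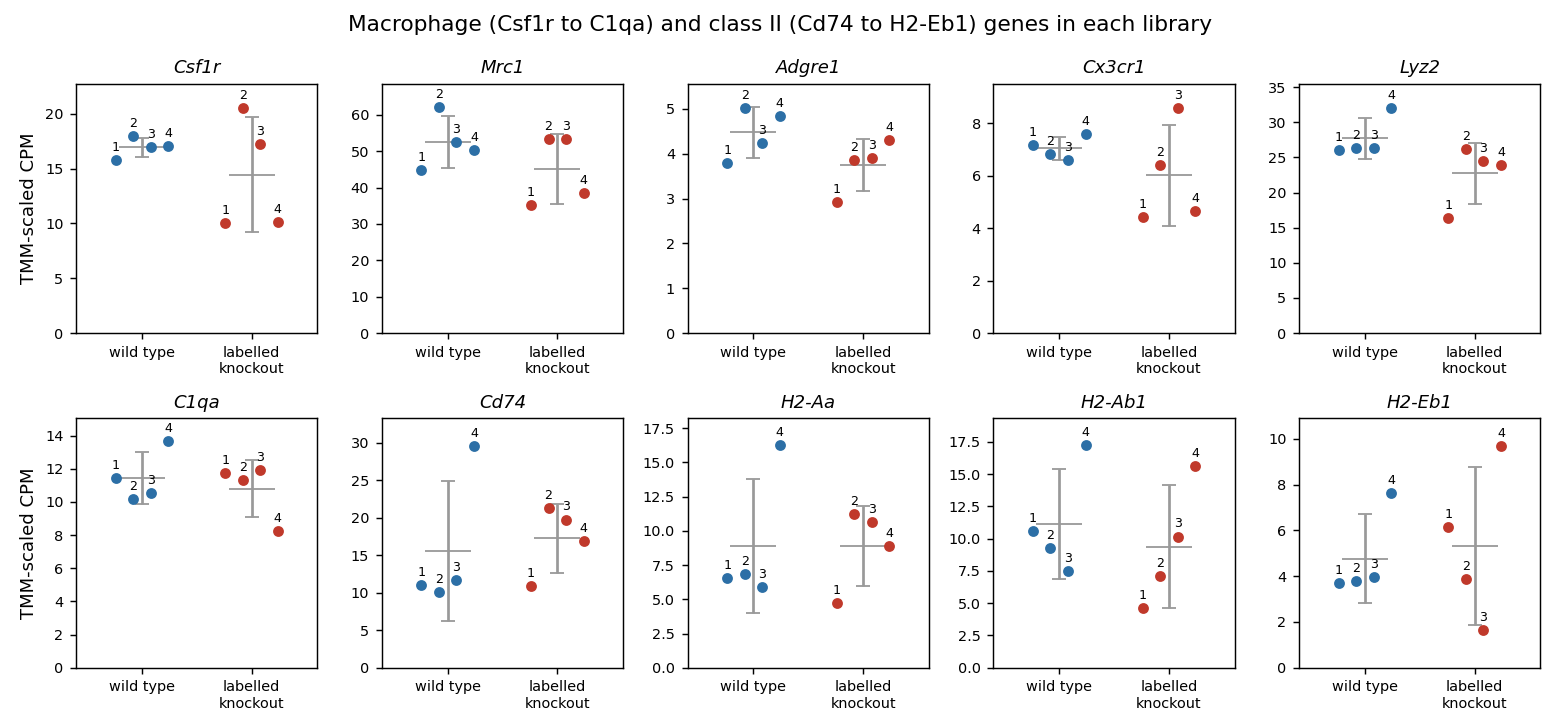
Level of each of the 10 genes in TMM-scaled CPM (vertical axes start at 0) in 4 wild-type and 4 labelled knockout libraries; numbers are library numbers, and grey bars show the mean ± SD. Csf1r and Mrc1 are low in KO1 and KO4. WT4 is the highest wild type for each of the 4 class II genes and also for Cx3cr1, Lyz2 and C1qa.

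The class II genes were spread widely within both groups. Cd74 (ENSMUSG00000024610), the invariant chain, was at 11.0, 21.4, 19.8 and 16.9 CPM in KO1 to KO4. In WT1 to WT4 it was at 11.0, 10.1, 11.7 and 29.6 CPM. WT4 was the highest of all 8 libraries, the other 3 wild types were close together, and KO2, KO3 and KO4 lay between them. The log2 fold change was 0.15 (95% interval -0.60 to 0.89), and 0.66 without WT4.

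H2-Aa (ENSMUSG00000036594), the I-A alpha chain, was at 4.73, 11.2, 10.6 and 8.92 CPM in KO1 to KO4 and at 6.57, 6.87, 5.91 and 16.2 in WT1 to WT4. Its order over the libraries was close to that of Cd74, with WT4 on top in both. KO1 was lowest in H2-Aa, while WT2 was lowest in Cd74 with KO1 next. H2-Aa had a log2 fold change of 0.00 (SE 0.35), and 0.46 without WT4, which did not pass either (edgeR adjusted p = 1.00).

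H2-Ab1 (ENSMUSG00000073421), the I-A beta chain, was at 4.60, 7.14, 10.2 and 15.6 CPM in KO1 to KO4 and at 10.6, 9.25, 7.48 and 17.2 in WT1 to WT4. KO1 and KO2 lay below every wild type, and KO4 came next to WT4. H2-Ab1 had a log2 fold change of -0.25 (95% interval -1.03 to 0.53), -0.61 without KO4 and 0.04 without WT4.

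H2-Eb1 (ENSMUSG00000060586), the I-E beta chain, was at 6.13, 3.86, 1.63 and 9.68 CPM in KO1 to KO4, from 136, 80, 33 and 166 counts. In WT1 to WT4 it was at 3.69, 3.77, 3.96 and 7.65 CPM. KO3 was the lowest and KO4 the highest of all 8 libraries. For H2-Eb1 the log2 fold change was 0.15 (95% interval -0.83 to 1.13), -0.30 without KO4 and 0.48 without WT4. A gene model on the other strand, Gm20513, overlaps H2-Eb1 in GENCODE M21.

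The macrophage genes and the class II genes differed in how much the wild types varied, a difference that was not tested. Across the 4 wild types the coefficient of variation of Csf1r was 5.17% and that of Cx3cr1 6.21%, where counting error alone gives 5.24% and 8.16%. Mrc1, Adgre1, Lyz2 and C1qa had 10.6% to 13.7%. The class II genes had 60.2% for Cd74, 55.2% for H2-Aa, 38.3% for H2-Ab1 and 40.4% for H2-Eb1, where counting error gives 5.52% to 9.95%. WT4 alone carried most of this contrast. Without it the values were 7.51% for Cd74, 7.66% for H2-Aa, 17.1% for H2-Ab1 and 3.71% for H2-Eb1, beside 0.754% to 16.2% for the 6 macrophage genes, a comparison added after the data were seen. In the labelled knockouts Csf1r, Cx3cr1, Cd74 and H2-Aa varied by 36.4%, 32.0%, 26.6% and 32.9%, and H2-Ab1 and H2-Eb1 by 50.6% and 64.5%. Mrc1, Lyz2, C1qa and Adgre1 varied less there, by 21.4%, 19.1%, 16.1% and 15.6%. Without KO1, the lowest labelled knockout in both, Cd74 and H2-Aa varied by 11.7% and 11.5%, and without KO3 Cx3cr1 varied by 21.1%.

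Per kilobase of annotated exon in wild types, Lyz2 had the highest level (21.1 ± 2.22 CPM per kilobase, SD, n = 4). C1qa, Cd74 and Mrc1 followed at 11.0 ± 1.50, 9.29 ± 5.59 and 8.24 ± 1.13, and these neighbours differed by less than the larger of their SDs. H2-Ab1 (4.34 ± 1.66), Csf1r (2.94 ± 0.152), H2-Eb1 (2.45 ± 0.990), H2-Aa (2.34 ± 1.29) and Cx3cr1 (1.56 ± 0.0971) formed a lower run in which no neighbours differed by more than that, and Adgre1 (1.38 ± 0.175) was lowest. The exon lengths are from GENCODE M21, not the authors' annotation.

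Interstitial type genes were then set against class II. In each library the mean log2 CPM of Csf1r and Mrc1 was subtracted from that of Cd74, H2-Aa, H2-Ab1 and H2-Eb1. The difference was -1.59, -1.86, -1.96 and -0.68 in KO1 to KO4 and -1.86, -2.24, -2.14 and -0.88 in WT1 to WT4. WT4 and KO4 had the highest class II relative to Csf1r and Mrc1, and the groups overlapped. The group means were -1.52 ± 0.58 and -1.78 ± 0.62 (SD, n = 4 each), a difference of 0.26 that is smaller than either SD. It was 0.56 without WT4 and -0.03 without KO4.

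The pair of libraries reached that position in different ways. In WT4 the class II mean was 0.88 above the wild-type mean on the log2 scale, and the mean of Csf1r and Mrc1 was at -0.02. The other macrophage genes were above their wild-type means in WT4, with Adgre1 at 0.12, Cx3cr1 at 0.11, Lyz2 at 0.22 and C1qa at 0.26. In KO4 the class II mean was 0.51 above, and Csf1r and Mrc1 were at -0.59. All class II genes were above their wild-type means in KO4, H2-Aa least (0.13) and H2-Eb1 most. KO1 was low in both means, at -0.47 for class II and -0.66 for Csf1r and Mrc1. Its class II genes did not move together, with H2-Eb1 at 0.43 and Cd74, H2-Aa and H2-Ab1 at -0.35, -0.77 and -1.19. KO2 was at 0.07 for class II and 0.15 for Csf1r and Mrc1, and KO3 at -0.15 and 0.03. Their class II means also mixed directions. In KO3 Cd74 and H2-Aa were at 0.50 and 0.38, H2-Ab1 at -0.06 and H2-Eb1 at -1.43. In KO2 Cd74 and H2-Aa were above their wild-type means, and H2-Ab1 and H2-Eb1 below.

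**Figure D2:**
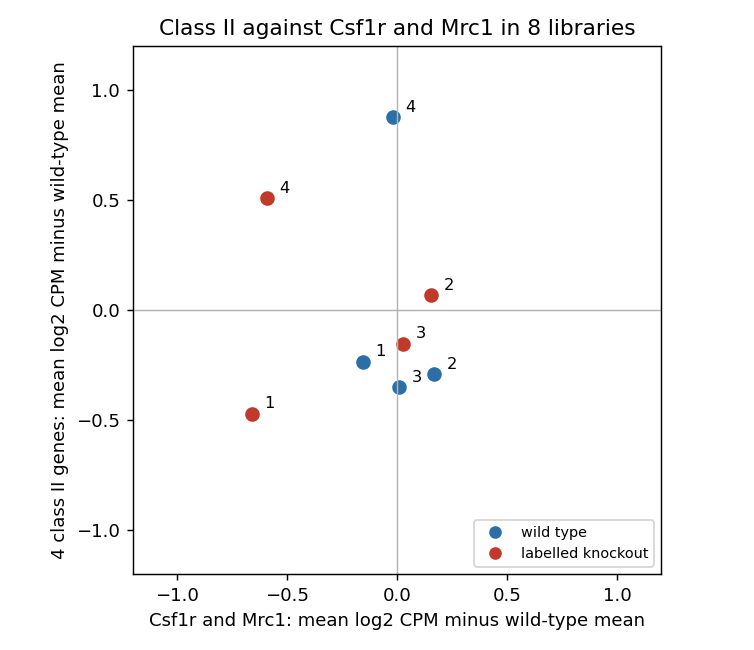
Mean log2 CPM of the 4 class II genes (vertical) against that of Csf1r and Mrc1 (horizontal), each minus its wild-type mean, for 4 wild-type (blue) and 4 labelled knockout (red) libraries numbered as in the study. WT4 lies high with its horizontal position near 0 (0.88 at -0.02), and KO1 and KO4 lie to the left at -0.66 and -0.59. In KO1, KO2 and KO3 the class II mean averages genes that lie on opposite sides of their wild-type means.

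Across the 8 libraries Csf1r ran with Mrc1 (Pearson r of log2 CPM 0.91, Spearman rho 0.95, and r = 0.52 without KO1 and KO4, the libraries farthest from the Csf1r median). Cd74 ran with H2-Aa (r = 0.95, rho = 0.83, and r = 0.85 without WT4 and KO2). The other class II pairs had lower r: 0.69 for H2-Aa with H2-Ab1, 0.55 for Cd74 with H2-Ab1 and 0.29 for H2-Ab1 with H2-Eb1. H2-Eb1 had r = 0.13 with Cd74 and 0.05 with H2-Aa. Among the other macrophage genes, r of Csf1r was 0.83 with Cx3cr1, 0.71 with Lyz2, 0.47 with Adgre1 and 0.42 with C1qa. Between the sides, r of Csf1r was 0.26 with Cd74, 0.43 with H2-Aa, 0.08 with H2-Ab1 and -0.59 with H2-Eb1 (rho 0.33, 0.62, -0.07 and -0.48). Without KO1 and KO4, r was 0.32, 0.31, -0.48 and 0.00 in the same order. These are descriptions with no test, since the genes were chosen with earlier results known, and the values share library scaling and composition.

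Markers of other cells were also read in KO1 and KO4, the low libraries of Csf1r, Mrc1 and Cx3cr1. The summed peritubular and stromal markers were 168 and 129 CPM there, against 217 and 215 in KO2 and KO3 and 152 to 188 in wild types. KO1 thus lay within the wild-type range, and KO4 below it. The summed elongating spermatid markers were 14836 and 14907 CPM, above the 9588 to 12518 of wild types, with 11888 in KO2 and 5994 in KO3. The summed Leydig markers were 1507 and 793 CPM, against 1394 in KO2, 1738 in KO3 and 1581 to 1893 in wild types. KO1, KO2 and KO4 were all below the wild types in these. KO2, the library highest in Csf1r, was lower than KO1 in this Leydig sum, and in Star, Cyp11a1, Cyp17a1 and Lhcgr singly. Insl3 (418 CPM in KO1, 578 in KO2) and Hsd3b1 (44.2 and 72.6) went the other way. The summed Sertoli markers were 147 CPM in KO1 and 132 in KO4, below the 157 to 183 of wild types. They were 160 in KO2 and 226 in KO3. Within that list Sox9 went the other way, at 32.5 and 26.9 CPM in KO1 and KO4 against 20.5 to 25.3 in wild types. The summed endothelial markers were 28.4 to 30.7 CPM in labelled knockouts, all below the 30.9 to 37.2 of wild types. The part of these shifts in the macrophage values was not tested.

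Within the class II chains, the balance of the 3 genes differed between labelled knockouts. In wild types, H2-Eb1 made up 17.7%, 19.0%, 22.8% and 18.6% of the summed counts of H2-Aa, H2-Ab1 and H2-Eb1, with exact 95% intervals that together ran from 14.0% to 27.1%. In KO1 to KO4 the share was 39.7% (exact 95% interval 34.4% to 45.0%), 17.4% (14.0% to 21.2%), 7.27% (5.06% to 10.1%) and 28.3% (24.7% to 32.1%), with 343 to 587 counts of the 3 genes per library. The intervals of KO1 and KO3 lay outside those of all 4 wild types, on opposite sides. The group means were 23.1% ± 14.0 and 19.5% ± 2.28 (SD, n = 4 each).

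H2-Aa made up 30.6%, 50.4%, 47.4% and 26.1% in KO1 to KO4 and 31.5% to 39.5% in wild types. H2-Ab1 made up 29.7%, 32.2%, 45.4% and 45.7% in KO1 to KO4 and 41.9% to 50.8% in wild types. WT4, with the most class II counts (823), had shares of 39.5%, 41.9% and 18.6% for H2-Aa, H2-Ab1 and H2-Eb1, so its 3 chains were high together. The shares were computed after the levels had been seen, and the intervals cover counting error only. Class II genes differ in sequence between mouse strains, and the labels used here name no strain. Reads of one allele may map less well than those of another, so a share of counts need not be a share of transcripts, and this was not tested.

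**Figure D3:**
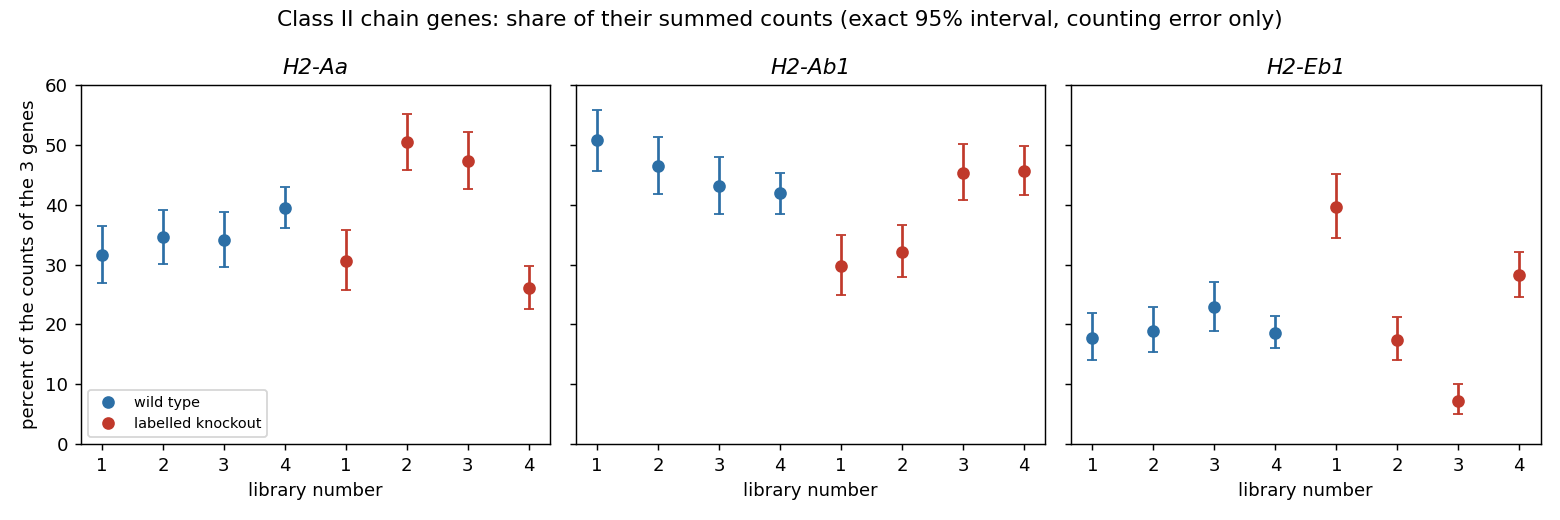
Share of H2-Aa, H2-Ab1 and H2-Eb1 in their summed counts (percent, axis from 0) in each wild-type (blue) and labelled knockout (red) library, with exact 95% intervals for counting error. H2-Eb1 lies between 17.7% and 22.8% in wild types and between 7.27% and 39.7% in labelled knockouts.

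Other class II region genes also differed among the labelled knockouts. The I-E alpha chain gene H2-Ea, listed as the pseudogene H2-Ea-ps in GENCODE M21, had 38 and 33 counts in KO1 and KO2, 4 and 0 in KO3 and KO4, and at most 6 in a wild type. It did not pass the filter on low counts. H2-DMb1 and H2-DMb2 are near copies that encode the beta chain of the peptide-loading factor H2-DM, so the counting could split reads between them. H2-DMb1 held 40.0%, 63.2%, 52.9% and 89.1% of their joint counts in KO1 to KO4 and 68.0% to 84.5% in wild types. The limit from strain and mapping holds for these counts and for those of H2-Ea too. The log2 fold change was -0.59 (SE 0.28) for H2-DMb1 and 0.55 (SE 0.41) for H2-DMb2, and neither passed.

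Of the 14 genes for class II loading and control, 9 passed the filter and 0 were called in either direction by edgeR, DESeq2 or limma-voom (0 at an unadjusted p under 0.05, median log2 fold change 0.00). Ciita, the master switch of class II, had only 4 to 11 counts per library, 0.180 to 0.550 CPM, so differences in it were not detectable at this depth. The subunits of its DNA-bound partner complex were measured well, with log2 fold changes of 0.00 for Rfx5 (SE 0.16), 0.11 for Rfxank (SE 0.14) and 0.04 for Rfxap (SE 0.12). H2-DMa, the alpha chain of the loading factor, had 7.98 ± 0.346 CPM in labelled knockouts and 9.25 ± 1.10 in wild types. The lysosomal protease Ctss, which trims the invariant chain, and the thiol reductase Ifi30 had 0.13 (SE 0.22) and -0.28 (SE 0.21). H2-Oa, H2-Ob and H2-Eb2 were at 0.193 CPM or less in every library.

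On the route from interferon gamma to Ciita, 5 of 6 genes passed the filter and 0 were called by any of the 3 tools (0 at an unadjusted p under 0.05). Ifng itself had a single count in KO3 and 0 in the other 7 libraries. Log2 fold changes were -0.08 (SE 0.14) for its receptor chain Ifngr1 and -0.07 (SE 0.10) for Ifngr2. It was -0.48 (SE 0.33) for the transcription factor Irf1.

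The ligands of the receptors did not differ beyond the spread either. Of 6 ligand and recruitment genes, 4 passed the filter and 0 were called by any of the 3 tools (0 at an unadjusted p under 0.05). Csf1 was at 6.27, 7.24, 11.7 and 5.25 CPM in KO1 to KO4 and at 7.41 to 8.57 in wild types. Its level was lowest in KO1 and KO4, as for Csf1r. Il34, the other CSF1R ligand, had 0.841 ± 0.255 against 1.26 ± 0.375 CPM (log2 fold change -0.59, SE 0.32), and Cx3cl1 had 4.96 ± 2.67 against 4.63 ± 0.376 CPM. The monocyte chemokine Ccl2 and the growth factor Csf2 were at 0.267 CPM or less in every library. Ccr2, the receptor of blood monocytes, was at 0.345 to 1.10 CPM.

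Of 16 further macrophage genes, 13 passed the filter, 0 were called by any of the 3 tools, and 1 had an unadjusted p under 0.05, with a median log2 fold change of -0.03. That gene was Cd163, the haemoglobin scavenger receptor, at 1.13, 2.12, 2.42 and 1.40 CPM in KO1 to KO4 with 2.22 to 2.94 in wild types. Its log2 fold change was -0.59 (SE 0.27, edgeR adjusted p = 1.00). Its lowest libraries were again KO1 and KO4. Some genes of the list were not low in KO1. Cd68 and Laptm5 were at 3.70 and 7.44 CPM there, above the wild types (at most 3.64 and 6.70). In KO4 they were at 2.68 and 4.78 CPM, below every wild type. C1qb and C1qc were at 15.9 and 10.5 CPM in KO1, within the wild-type ranges. The apoptotic cell receptor Mertk, which Sertoli cells also use, was at 6.36, 9.60, 16.2 and 6.41 CPM in KO1 to KO4. Log2 fold changes were -0.05 (SE 0.31) for the myeloid factor Spi1 (PU.1) and -0.08 (SE 0.28) for the adaptor Tyrobp. Aif1 did not run with the macrophage genes: it was at 144 to 355 CPM, lowest in KO3, where the spermatid markers were lowest. Lyve1, Timd4 and Itgam fell below the filter.

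**Figure D4:**
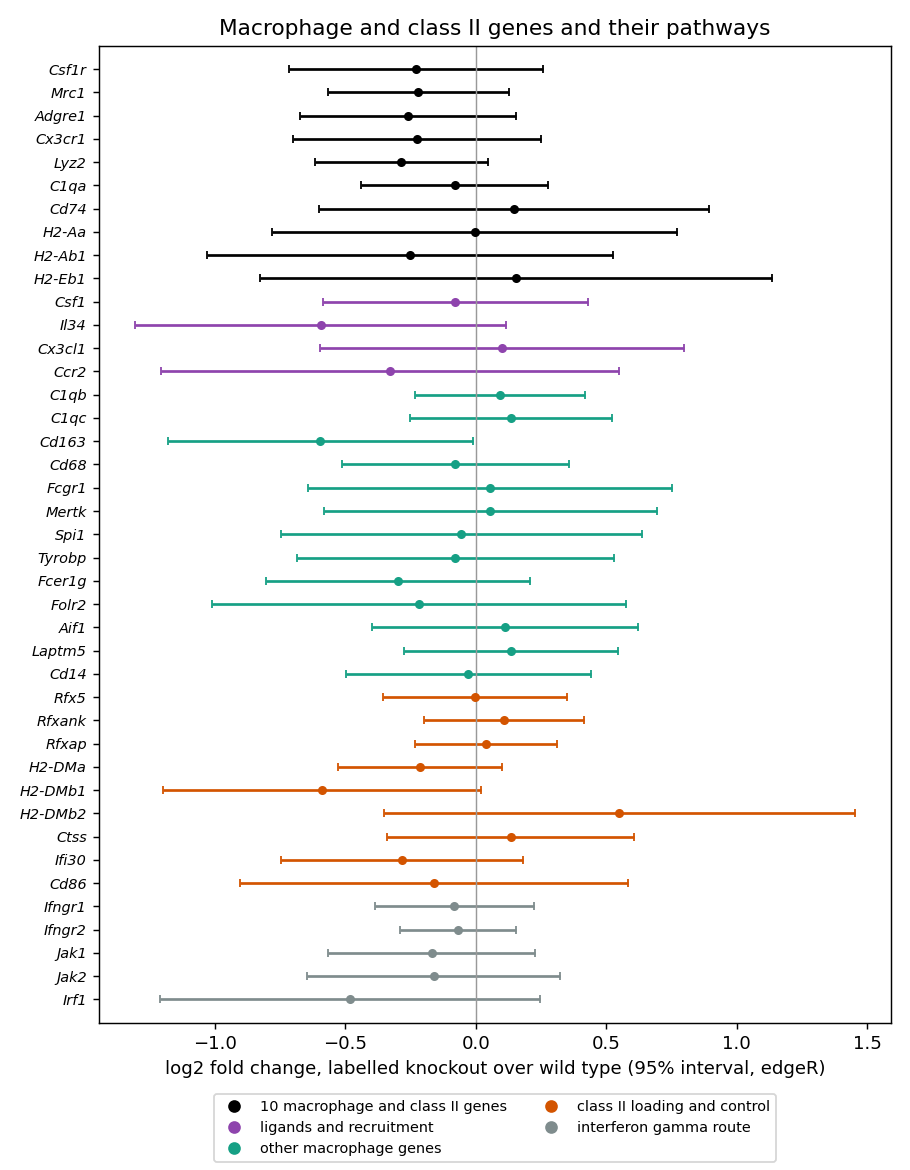
Log2 fold change, labelled knockout over wild type, with its 95% interval from edgeR for the 10 genes and for the tested genes of 4 pathway lists (colours). All intervals of the 10 genes include 0, and those of the class II genes are wider than those of the macrophage genes.

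Among markers of other class II bearing or immune cells, some were near 0 and others were at levels like those of the 10 genes. The B cell markers Cd79a and Cd79b were at 0.247 CPM or less and Ms4a1 at 0.225 to 1.11 CPM, although Pax5 was at 10.4 to 17.4 CPM. Summed B cell markers were 14.0 to 20.2 CPM in labelled knockouts and 16.4 to 19.2 in wild types, and summed dendritic cell markers 19.7 to 23.3 and 21.4 to 23.0. In WT4, the library with the most class II, these sums were 19.2 and 23.0 CPM, each the highest of the wild types but by a small margin. Of the 7 dendritic cell genes, WT4 had Zbtb46 at 12.9 CPM, Flt3 at 5.65, Ccr7 at 2.20 and Itgax at 1.65, and Xcr1, Clec9a and Cd209a had 11, 1 and 0 counts there. Over all libraries Zbtb46 was at 11.2 to 14.5 CPM and Flt3 at 4.84 to 6.36. The part of these cells in the class II values was not tested. The T and NK cell sum was 7.11 to 13.1 CPM in all libraries, with Cd3d at 5.03 to 10.7 and Cd8a at 0.117 or less, and 4 of the 5 neutrophil markers were at 0.135 CPM or less. The leukocyte antigen Ptprc was at 1.18 to 2.02 CPM with no library apart, while Cd52, which the epididymis also makes, was at 28.7 CPM in KO3, the library with the most epididymis markers. The 5 mast cell markers summed to 0.971 CPM or less. In the lists of this paragraph 0 genes were called by edgeR, DESeq2 or limma-voom, and Cd52 alone had an unadjusted p under 0.05.

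Over the 19017 genes other than the 10 with a mean of at least 1 CPM, those whose log2 CPM ran most like Csf1r in the 8 libraries were Depdc7 (r = 0.985), Zfp40 (0.981), Sparcl1 (0.981), Pcsk5 (0.977) and Igf1 (0.977). Mrc1 ranked 166 of 19026 by the same measure when the other genes of the set were included, and Cx3cr1 667. For H2-Ab1 the nearest were ENSMUSG00000119944, which matched no symbol (0.989), Rilpl2 (0.966), Mdga1 (0.928), Phc2 (0.904) and Gm5577 (0.896). Lyz2 ranked 220, Adgre1 222, H2-Aa 275 and Cd74 901 of 19026 for H2-Ab1. These values of r are a description with no test.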

How the data were processed

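Per the labels' protocols, libraries were built with an Illumina TruSeq RNA kit from DNase-treated TRIzol RNA of adult testis. The table deposited by the authors holds raw, unnormalized counts for each Ensembl gene. The builds GRCm39 and mm39 and the tools Trimmomatic, STAR, featureCounts and DESeq2 are listed, per the submitters' processing notes, and the sources used here give no versions, annotation or strand setting. No column was left without a sample (0). Symbols came from GENCODE M21 (52073 of 56748 identifiers).

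Low counts were removed with filterByExpr (minimum count 10, minimum total 15). Groups were compared without covariates with the quasi-likelihood test of edgeR 4.0.16 (R 4.3.3, with limma 3.58.1) on TMM-scaled counts, with Benjamini-Hochberg adjustment over 21805 genes. Each SE comes from the log2 fold change and its F value. Log2 CPM use a prior count of 2. The script was tested on simulated counts. The 10 genes and all lists were chosen with earlier results of these data known. Genes named are the 10, Ak9, the 4 pathway lists, fixed cell markers, and the 5 genes running most like Csf1r and H2-Ab1. A gene of the interferon gamma list is not reported here. Cd52 was singled out after its values were seen. Alternatives were a replicate block, RLE scaling, other filters, DESeq2 1.42.0, limma-voom and leaving out each library. Within each group no library copied another (chi-square per gene at least 4.61), and pairs across the groups were not compared.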

Additional observations from a re-analysis of the deposited data

Results flagged for a closer look

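WT4, the library labelled wild type 4, stood far from the other 3 wild types in 4 of the 10 genes: Lyz2 at 32.1 CPM, Cd74 at 29.6 CPM, H2-Aa at 16.2 CPM and H2-Eb1 at 7.65 CPM. In each, its gap to the nearest wild type was 0.907 to 0.937 of the wild-type range, above Dixon's 95% critical value for 4 samples. Of 20 groups examined (10 genes in 2 groups), chance alone flags about 1 in 20, and the 4 genes come from a single library, so they are not independent of one another. No KO library was flagged.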

How the results depend on the processing

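Under all 14 alternatives to the test 0 of the 10 genes were called (lowest adjusted p = 0.186, for Cx3cr1). The log2 fold changes of Csf1r, Adgre1, Mrc1, Cx3cr1 and Lyz2 stayed below 0 in all of them, from -0.46 to -0.09. The sign of the others turned. When a library was left out, C1qa ran from -0.141 without KO3 to 0.0283 without KO4 (0.0137 without WT4), Cd74 from -0.0139 without WT2 to 0.659 without WT4, and H2-Ab1 from -0.607 without KO4 to 0.0400 without WT4. H2-Aa ran from -0.160 without WT3 to 0.458 without WT4, and was 0.0578 with the replicate block and 0.0559 with limma-voom. H2-Eb1 ran from -0.296 without KO4 to 0.477 without WT4, and was -0.0536 with limma-voom. The cause was not tested. Over all genes 4 were called, against 26 with no low-count filter, 46 with DESeq2, and 3 to 35 when a library was left out (33, 35 and 33 without KO1, KO3 and KO4). The class II mean minus that of Csf1r and Mrc1 differed between groups by -0.03 to 0.56 when a library was left out and by 0.17 to 0.29 under the other settings. Libraries with the same number did not deviate together (correlations -0.03 to 0.09), so no pairing by number was visible. This check cannot exclude a pairing that leaves little trace in the counts. The replicate block called 4 genes and 0 of the 10. Depth limits Ciita, H2-Ea and the other genes under 1 CPM.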
